A study of Homo sapiens with 24 samples.

Results

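Polycomb promoters without H3K4me3 were defined as promoters of autosomal protein-coding genes that carried trimethylated lysine 27 of histone H3 (H3K27me3) and lacked trimethylated lysine 4 (H3K4me3). A gene was a member when the windows of 1 kb on each side of its transcription start sites (TSSs) overlapped an H3K27me3 peak in at least 4 of 6 peak lists and an H3K4me3 peak in 0 of 6 lists. Of 19229 autosomal coding genes in the hg19 annotation, 1601 (8.33%) met this rule. Since the rule used H3K27me3 and H3K4me3, the values of these marks in the members are given as a description with no test, whereas acetylated lysine 27 (H3K27ac), DNA sequence, gene family and position were not used by it.

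H3K27me3 is written by Polycomb repressive complex 2, whose catalytic subunit is EZH2, and marks genes that are kept silent in a given cell type. H3K4me3 marks active or poised start sites, and promoters that hold both marks are called bivalent and are typical of CpG-rich promoters of developmental regulators. H3K27ac sits on the same residue as H3K27me3, so a single histone tail cannot carry both.

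To investigate how TGFβ and PHF13, a PHD finger protein that binds H3K4me3, affect chromatin, the study mapped H3K4me3, H3K27me3 and H3K27ac by ChIP-seq in PANC-1, an established human pancreatic ductal carcinoma cell line. All cells were transfected with siRNA. The siControl group received non-targeting siRNA and no TGFβ, the siControl+TGFβ group received non-targeting siRNA and 10 ng/ml TGFβ for 48 h, and the siPHF13+TGFβ group received PHF13 siRNA and the same TGFβ treatment. Each group had 2 libraries per mark, which gave 18 peak lists, and a slash below separates the first from the second library of a group. The labels do not say that the replicates were separate cultures, so p-values measure the spread between these libraries only. Of 11 markers of ductal epithelium, 7 carried H3K4me3 in 6 of 6 lists, among them KRT8, KRT18, KRT19, EPCAM, SOX9 and MUC1, and of 14 acinar markers 0 carried H3K4me3 in any list.

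The peak lists differed in length. The H3K27me3 lists held 59573 to 165717 peaks, the H3K4me3 lists 27869 to 39202 and the H3K27ac lists 6004 to 36104, and the read depth behind them is not in the lists. The first siPHF13+TGFβ library stood apart with the shortest list of each mark, and the first siControl library had 98211 H3K27me3 peaks against 165717 in the second. In addition, the peak names written in the files went against the labels for both TGFβ-treated groups: lists labelled siPHF13+TGFβ carried a name that the study used for control siRNA with TGFβ, and lists labelled siControl+TGFβ carried another name. Groups follow the labels here, and all 3 pairwise comparisons are given, since an exchange would turn siPHF13+TGFβ minus siControl into the comparison of TGFβ with control.

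Promoters with high H3K27me3 enrichment and a few contrasting members are shown as the 250 bases before the canonical TSS, read from the GRCh37 (hg19) sequence 5′ to 3′ on the strand of the gene, with CpG dinucleotides in capitals. FCGBP (chr19:40440534-40440783, minus strand), CYP4F11 (chr19:16045340-16045589, minus) and TAF11L10 (chr5:17597938-17598187, minus) were among those with the highest fold enrichment. EIF5AL1 (chr10:81272039-81272288, plus) had the highest CpG ratio among the members with the strongest, longest or acetylated domains, and CYP4F11 the lowest. KRT6B (chr12:52845931-52846180, minus) and GRIK3 (chr1:37500117-37500366, minus) were chosen for printing after their values were seen, as a keratin and a CpG-rich member.
FCGBP: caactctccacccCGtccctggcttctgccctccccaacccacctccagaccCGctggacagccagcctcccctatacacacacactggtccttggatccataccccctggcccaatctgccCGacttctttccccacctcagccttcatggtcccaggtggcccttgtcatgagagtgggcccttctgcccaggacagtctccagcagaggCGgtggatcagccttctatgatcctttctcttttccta
CYP4F11: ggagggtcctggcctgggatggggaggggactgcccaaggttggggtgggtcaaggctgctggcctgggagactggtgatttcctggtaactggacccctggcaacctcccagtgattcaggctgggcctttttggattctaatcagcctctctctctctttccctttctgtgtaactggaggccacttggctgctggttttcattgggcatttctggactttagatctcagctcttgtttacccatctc
TAF11L10: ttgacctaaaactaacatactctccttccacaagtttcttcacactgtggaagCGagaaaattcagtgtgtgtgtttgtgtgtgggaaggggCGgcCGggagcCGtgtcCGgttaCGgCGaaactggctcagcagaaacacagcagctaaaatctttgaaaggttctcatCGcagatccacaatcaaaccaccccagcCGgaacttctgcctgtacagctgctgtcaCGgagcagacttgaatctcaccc
EIF5AL1: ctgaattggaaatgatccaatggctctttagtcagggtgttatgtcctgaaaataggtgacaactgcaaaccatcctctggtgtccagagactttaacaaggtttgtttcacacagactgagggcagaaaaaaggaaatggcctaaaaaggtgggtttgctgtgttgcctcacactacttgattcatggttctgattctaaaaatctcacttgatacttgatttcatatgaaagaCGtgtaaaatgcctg
KRT6B: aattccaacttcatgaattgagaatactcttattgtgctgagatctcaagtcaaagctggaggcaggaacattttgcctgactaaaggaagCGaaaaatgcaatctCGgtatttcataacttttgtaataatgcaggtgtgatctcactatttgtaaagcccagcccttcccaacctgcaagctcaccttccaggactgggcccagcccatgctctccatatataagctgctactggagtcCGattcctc
GRIK3: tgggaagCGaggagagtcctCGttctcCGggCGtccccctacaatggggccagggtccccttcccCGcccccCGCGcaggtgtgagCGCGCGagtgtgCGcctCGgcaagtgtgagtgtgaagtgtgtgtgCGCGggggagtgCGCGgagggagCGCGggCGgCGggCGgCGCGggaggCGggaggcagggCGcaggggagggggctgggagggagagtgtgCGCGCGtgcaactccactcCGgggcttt
The number of CpG dinucleotides in these 250 bases was 4 for FCGBP, 0 for CYP4F11, 10 for TAF11L10, 1 for EIF5AL1, 3 for KRT6B and 29 for GRIK3. Most of the sequences shown hold few CpG dinucleotides, and GRIK3 is the exception. The CpG ratio used below also counts the 50 bases after the TSS, which are not shown.

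The members were first described by the marks that chose them. H3K27me3 was found at 1276 and 1598 of the 1601 members in the siControl libraries, at 1548 and 1549 in the siControl+TGFβ libraries, and at 850 and 1548 in the siPHF13+TGFβ libraries. The first libraries of siControl and siPHF13+TGFβ were low, and the other 4 lay close together. In all, 718 members carried the mark in 6 of 6 lists, 529 in 5 and 354 in 4. The most frequent gap was the first siPHF13+TGFβ list alone, at 422 members, followed by this list together with the first siControl list, at 229. When each list was left out in turn and members were chosen from the remaining 5, H3K27me3 was found in the left-out list at 52.4% to 99.8% of the genes chosen, against 16.9% to 32.0% of all coding genes. H3K4me3 was found in the left-out list at 0.127% to 3.24% of the genes chosen, against 71.4% to 74.6% of all coding genes.

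**Figure D1:**
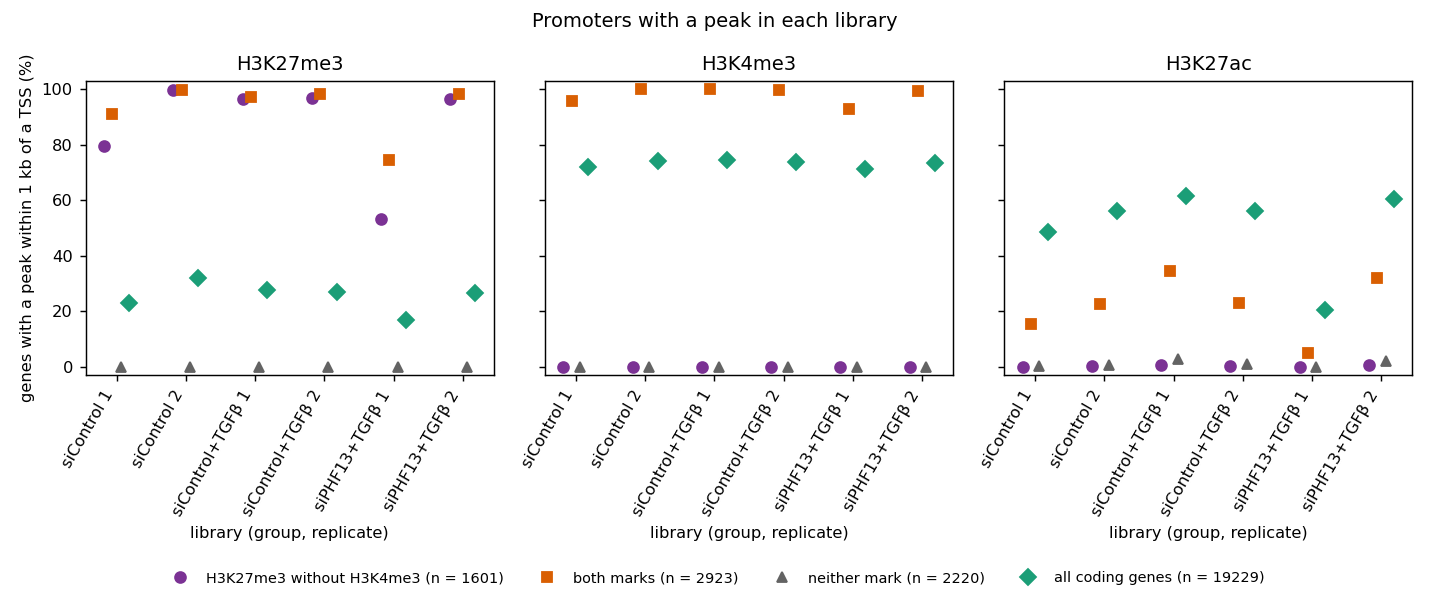
Share of genes (vertical axis, %) with a peak within 1 kb of a TSS in each library (horizontal axis) for H3K27me3, H3K4me3 and H3K27ac, with 1 point per library and set of promoters. H3K27me3 at the 1601 members reached 53.1% in the first siPHF13+TGFβ library and 79.7% to 99.8% in the others, and H3K27ac stayed at or below 0.687% in every library.

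For comparison, 2923 genes carried both marks, each in at least 4 lists, and 2220 genes carried neither mark in any list. Over the members with a peak, the median fold enrichment over input ranged from 2.88 to 3.56 across the 6 lists. The median summed length of the peaks touching the windows of a gene ranged from 908 to 6445 bp. The shortest H3K27me3 list had the highest median fold and the smallest summed length, and the longest list the lowest median fold and the largest summed length. The values of single genes below are therefore given by library as a description. Averaged over the 6 lists with an absent peak counted as 0, the fold had a median of 2.66 in members and 3.26 in promoters with both marks. At the edge of the rule, the 354 members with 4 lists had a median of 1.94 by this measure, and the 244 genes with 3 lists and no H3K4me3 had 1.42. FAM27E3, PDIA2 and GOLGA8G were the highest inside this edge, with a mean fold of 2.86, 2.65 and 2.32. ODF3, USP17L19 and NBPF20 were the highest outside it, with 1.82, 1.79 and 1.78. A further 87 genes with H3K27me3 in at least 4 lists were left out for an H3K4me3 peak in a single list.

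The summed length of the peaks that touched the TSS windows of a gene was smaller in members than in promoters with both marks. In the mean of 6 lists, with an absent peak counted as 0, its median over genes was 3203 bp against 4228 bp. Among genes with a peak, the median was smaller in each of the 6 lists. The windows were also smaller in members, with a median of 4000 bp against 6276 bp, so these sums do not give the length of single peaks. Farther from the TSS, H3K27me3 was more frequent around members. In 1 kb bins around the canonical TSS, H3K27me3 covered a mean over lists of 64% of members at the TSS, 49.7% at 5 kb downstream, 44.6% at 10 kb and 32.5% at 50 kb. Promoters with both marks started at 67.4% and were at 34.8% at 5 kb downstream, 28.6% at 10 kb and 20.9% at 50 kb. The decline with distance was shallower around the members, also upstream, with 42.4% of members at 10 kb before the TSS against 31.6%. The peaks covered a median of 34.4% of the gene body in members and 14.3% in promoters with both marks. Members were shorter genes, with a median of 13843 bp against 54264 bp, and had a median of 3 annotated TSSs against 6. The canonical TSS itself had H3K27me3 in at least 4 lists at 1284 members (80.2%), whereas the other members met the rule only with their further TSSs counted.

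**Figure D2:**
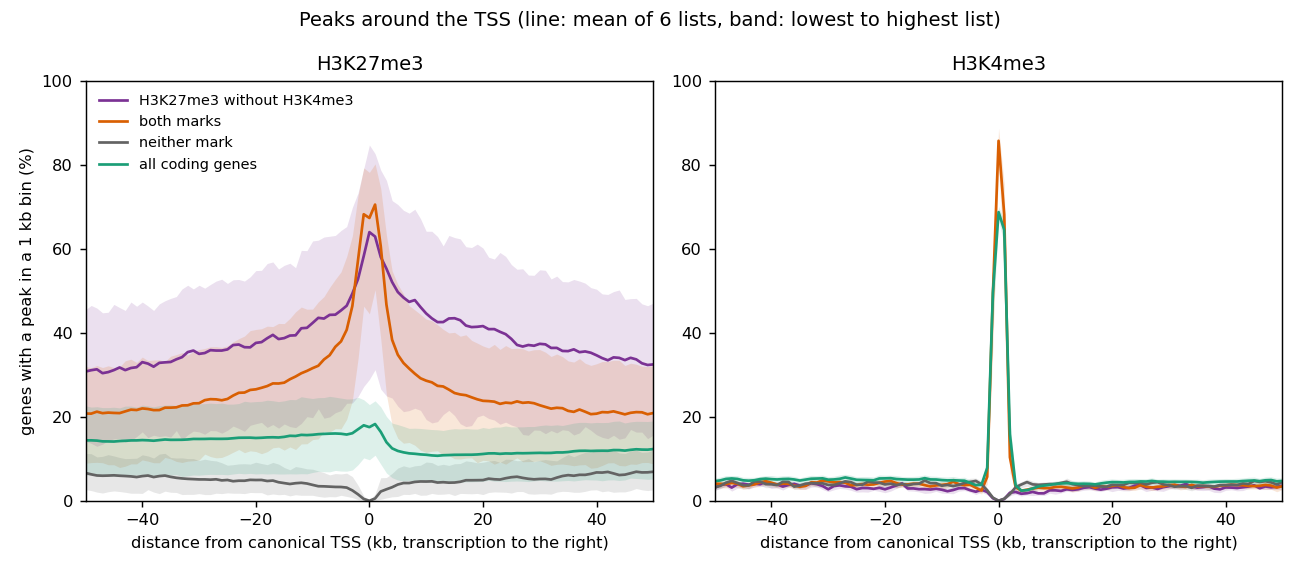
Share of genes (vertical axis, %) with an H3K27me3 or H3K4me3 peak in 1 kb bins from 50 kb before to 50 kb after the canonical TSS (horizontal axis, kb), with lines for the mean of 6 lists and bands from the lowest to the highest list. H3K27me3 at the members fell from 64% at the TSS to 32.5% at 50 kb downstream, a slower fall than at promoters with both marks, and the H3K4me3 gap at the TSS is fixed by the rule.

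The nearest H3K4me3 peak of any list lay at a median of 18796 bp from a TSS of a member and 21435 bp from a TSS of a promoter with neither mark. It lay within 2 kb at 114 members (7.12%), within 5 kb at 285 (17.8%), within 10 kb at 517 (32.3%) and within 50 kb at 1253 (78.3%). In the bin at 5 kb downstream, 1.80% of members had H3K4me3 against 2.53% of all coding genes, and at 50 kb downstream 3.61% against 4.73%.

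The strongest enrichment was seen at 3 genes. FCGBP, which encodes a mucin-like IgG Fc-binding protein of mucosal surfaces (chr19:40353963-40440533, minus strand), had a fold enrichment of 10.7/9.55 with siControl, 9.46/11.4 with siControl+TGFβ and 9.79/8.62 with siPHF13+TGFβ. CYP4F11, a fatty acid hydroxylase (chr19:16023177-16045677, minus), had 15.2/5.92, 6.65/8.64 and 9.54/12.9 for these groups. ART1, a mono-ADP-ribosyltransferase, had 14.9/9.24 and 10.4/9.93, then no peak in the first siPHF13+TGFβ library and 9.40 in the second. The 3 groups overlapped at FCGBP. At CYP4F11 the siControl libraries held both the lowest and the highest value. At ART1 the library without a peak was the one with the shortest list. The summed peak length had a mean of 92670 bp at FCGBP, whereas it had a mean of 1229 bp at CYP4F11. The next genes were TAF11L10, HLA-DRB5, AL137798.1, KIR3DL2 and TAF11L3, with a mean fold of 5.08, 4.84, 4.83, 4.75 and 4.72. TAF11L10, TAF11L3 and AL137798.1 belong to copies whose promoters share every run of 50 bases with another coding gene.

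**Figure D3:**
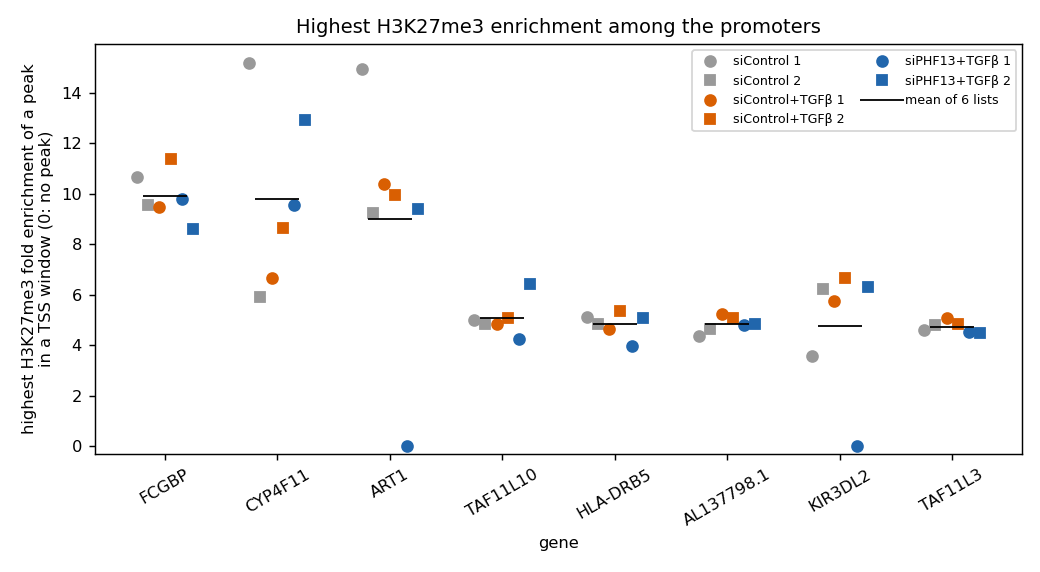
Highest H3K27me3 fold enrichment of a peak in a TSS window (vertical axis, 0 where the list had no peak) at the 8 members with the highest mean (horizontal axis), with 1 point per library and a bar for the mean of 6 lists. FCGBP, CYP4F11 and ART1 stand above the other 5 genes, with a mean of 9.91, 9.80 and 8.98 against 5.08 at TAF11L10.

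Near-identical copies bear on such values, since reads from them can be placed at any of the equal sites. A promoter was counted as a near-identical copy when at least 50% of its runs of 50 bases, from 250 bases before to 50 after the canonical TSS, were found in the promoter of another coding gene. This held for 112 members (7.0%), for 105 of the 2220 promoters with neither mark and for 366 of all coding genes (1.90%). It left 1489 members without such a copy.

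The longest summed peaks lay close together on chromosome 19. The 8 members with the longest summed peaks included LGALS16, LGALS13, CLC and LGALS14, which encode galectins of the placenta and of eosinophils. The others were FCGBP, and IFNL2, IFNL3 and IFNL4, which encode type III interferons. All 8 lie between 39734095 and 40440533 of chromosome 19. Within this segment 9 of 27 coding genes were members, the ninth being LEUTX, an embryonic homeobox gene. The segment ends 296 kb before the gene AKT2. Copy number is not in the peak lists, and its part in these lengths and in the fold at FCGBP was not tested. The summed peak length averaged 129565 bp at LGALS16, 121062 bp at LGALS13 and 70630 bp at IFNL4. At LGALS16 the fold was 2.66/2.66 with siControl, 2.75/2.76 with siControl+TGFβ and 2.79/2.65 with siPHF13+TGFβ. The summed peak length at LGALS16 was 72043/110861 bp, 110986/206371 bp and 72369/204757 bp for these groups. The fold thus differed little between libraries, whereas the summed length differed more. It was shortest in the first siControl and first siPHF13+TGFβ libraries.

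Next, the members were grouped by gene family. The lists were gene symbols chosen with earlier results of these data known, so their counts are set beside the 8.33% of all coding genes and carry no test. Among the gene lists of at least 25 genes, keratins and epidermal differentiation genes had the highest shares. Of 55 keratins, the intermediate filament proteins of epithelia, 26 were members (47.3%) and 0 carried both marks. The members included KRT5 and KRT14 of the basal epidermis, KRT1 of the differentiating layers and KRT6A, KRT6B, KRT16 and KRT17, which are induced in wounded skin. By contrast, KRT8, KRT18 and KRT19 of simple epithelia had H3K4me3 in 6 of 6 lists and H3K27me3 in 0. At KRT6B, the fold was 3.61/3.44 with siControl, 3.58/3.92 with siControl+TGFβ and 3.30/3.73 with siPHF13+TGFβ. At KRT77, a keratin of sweat gland ducts, it was 3.72/3.27, 3.50/3.33 and 3.73/3.10. The values of the groups overlapped at both genes. Over the 26 member keratins, those with H3K27me3 numbered 26 and 26 for siControl, 26 and 25 for siControl+TGFβ and 15 and 26 for siPHF13+TGFβ.

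Of 54 epidermal differentiation genes, 22 were members (40.7%) and 0 carried both marks. They included S100A8, a subunit of the antimicrobial protein calprotectin, and TCHH, a structural protein of hair follicles, with a mean fold of 3.33 and 3.28. The members with H3K27me3 numbered 15 and 22 for siControl, 22 and 20 for siControl+TGFβ and 7 and 20 for siPHF13+TGFβ, the low counts being those of both short lists. Of 94 keratin-associated proteins, which crosslink hair keratins, 20 were members (21.3%), led by KRTAP5-10 and KRTAP5-11 with a mean fold of 3.89 and 3.69, and 53 carried neither mark.

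Genes of immune cells formed another large group. Of 260 immune cell surface receptors, 91 were members (35.0%) and 29 carried both marks, and of 130 cytokine and chemokine genes, 36 were members (27.7%) and 9 carried both marks. KIR3DL2 and KIR2DL3, inhibitory receptors of natural killer cells, had a mean fold of 4.75 and 4.15, and their promoters share 49.0% of their 50-base runs with another gene. CCL23, a chemokine, and IL21R, the interleukin 21 receptor, had 3.46 and 3.37. At IL21R, the fold was 3.54/3.41 with siControl, 3.25/3.40 with siControl+TGFβ and 3.61/3.04 with siPHF13+TGFβ. The siPHF13+TGFβ libraries held both the highest and the lowest value of IL21R. Of the 91 receptor genes, those with H3K27me3 numbered 77 and 91 for siControl, 90 and 90 for siControl+TGFβ and 46 and 89 for siPHF13+TGFβ.

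Enzymes and secreted proteins of liver, adrenal and glands followed. Of 78 genes for cytochromes P450 and UDP-glucuronosyltransferases, which metabolise steroids and drugs, 20 were members (25.6%), among them CYP11B1, the adrenal 11β-hydroxylase, with a mean fold of 3.53. Of 98 serpins and serine proteases, 18 were members (18.4%), led by PRSS1, the trypsinogen of acinar cells, and TMPRSS4, a membrane protease, with 3.52 and 3.37. Of 371 solute carriers, 46 were members (12.4%), led by SLC6A5, a neuronal glycine transporter, and SLCO2B1, an organic anion transporter, with 3.55 and 3.50. Of 102 collagens, laminins and matrix proteases, 14 were members (13.7%), led by COL20A1 and COL6A5 with 3.18 and 3.09, and 40 carried both marks.

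Neuronal and developmental families held more promoters with both marks than members. Of 93 potassium channel genes, 10 were members (10.8%) and 55 carried both marks (59.1%). KCNJ9 and KCNK17, an inward rectifier and a background channel, led the 10 with a mean fold of 3.49 and 3.33. Of 31 voltage-gated sodium and calcium channels, 4 were members and 14 carried both marks. CACNA1S of skeletal muscle and CACNA1I had 3.35 and 2.42. Of 171 homeobox factors, 12 were members (7.02%) and 65 carried both marks (38.0%), and of 140 other developmental transcription factors, 14 were members (10.0%) and 47 carried both marks (33.6%). PAX4, a factor of pancreatic endocrine development, FOXL3, and FOXN1 of thymus and skin were among the highest of these members with 3.63, 3.78 and 3.54. Of 73 ligands of the WNT, FGF and BMP families, 6 were members and 36 carried both marks, and GDF2 and NODAL had 3.21 and 3.17. Ligand-gated neurotransmitter receptors had 14 members of 68 (20.6%), with CHRND of the neuromuscular junction at 3.44 and GRIK3, a kainate receptor, at 3.37. G protein-coupled receptors had 43 of 231 (18.6%), and 58 with both marks, with GALR2, a galanin receptor, at 3.65 and MRGPRG at 3.62.

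The remaining families had few members or carried neither mark. Of 414 olfactory receptors, 52 were members (12.6%), whereas 244 carried neither mark (58.9%), and OR4F4 and OR4F17 had the highest mean fold of 3.90 and 3.71. Of 59 cadherins and claudins, 6 were members, led by CLDN25 and CLDN14. Of 82 genes for dyneins and other proteins of the ciliary axoneme, 7 were members, led by DNAI2 and DNAH8, and 30 carried both marks. Of 503 zinc finger genes, 3 were members (0.596%), with ZNF683 and ZNF831 highest, and 445 carried H3K4me3 in 6 lists. None of 53 clustered protocadherins was a member, and 32 carried neither mark. None of the 28 genes for Polycomb proteins and H3K27 demethylases was a member, and all 28 carried H3K4me3 in 6 lists.

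**Figure D4:**
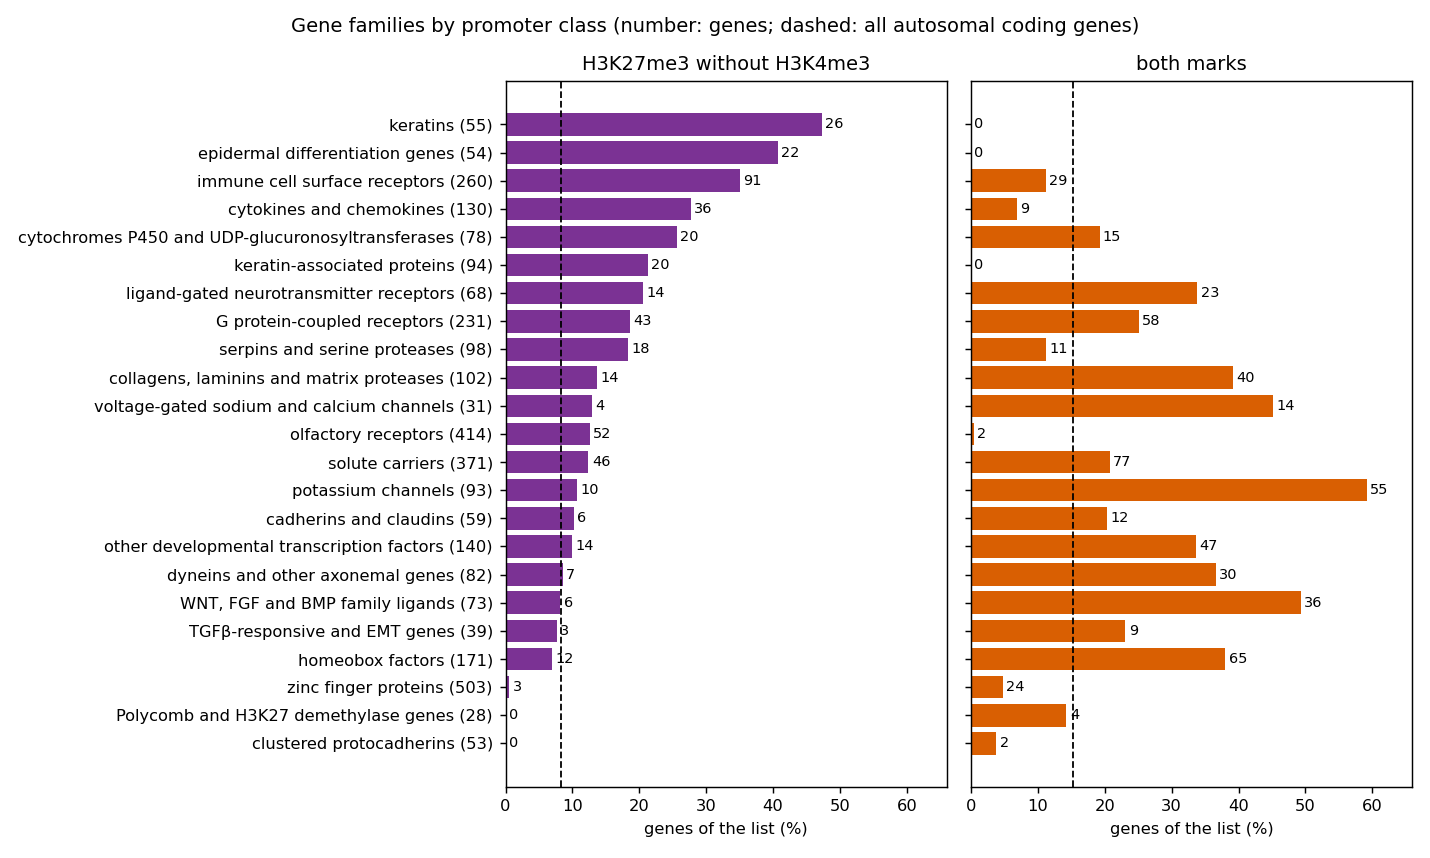
Share of the genes of each family (horizontal axis, %, list size in brackets) that had H3K27me3 without H3K4me3 (left) or both marks (right), with the number of genes beside each bar and a dashed line for all autosomal coding genes. Keratins (26 of 55) and epidermal differentiation genes (22 of 54) led on the left with 0 genes on the right, and potassium channels (55 of 93) led on the right.

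Markers of other cell types were also found among the members. These lists are short, and their counts are a description beside the 8.33% of all coding genes. Of 14 acinar markers, PRSS1, GP2, CPB1 and CEL were members, and 6 carried neither mark. Of 12 endocrine markers, INS, SST, PAX4 and CHGA were members, 3 carried both marks and 1 neither mark. Of 10 hepatocyte markers, CYP3A4, APOB, AHSG and TAT were members, and 1 carried neither mark. Of 10 muscle markers, TNNT2, TTN, DES, MYH6 and MYH7 were members, and 2 carried both marks. Of 10 leukocyte markers, CD3E and CD3D of T cells were members, 2 carried both marks and 2 neither mark. Of 9 markers of fibroblasts and endothelium, VWF and CDH5 of endothelium were members, 4 carried both marks and 3 neither mark. By contrast, 0 of 10 neuronal markers were members, and 5 of these carried both marks. At INS, the insulin gene (chr11:2181009-2182451, minus strand), the fold was 3.67/2.72 with siControl, 3.44/3.37 with siControl+TGFβ and 3.42/2.89 with siPHF13+TGFβ. At PAX4 it was 3.40/3.52, 3.84/3.47 and 3.97/3.58, and at GP2, a zymogen granule protein, 3.21/2.48, 3.35/2.82 and 3.33/3.0. The groups overlapped at INS and GP2. At PAX4 the first siPHF13+TGFβ library, with the shortest list, was the highest. Of the ductal markers, SPP1, which encodes osteopontin, was a member with H3K27me3 in 5 lists.

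TGFβ induces epithelial to mesenchymal transition, in which epithelial cells take up a migratory, matrix-producing state. Of 39 TGFβ-responsive and transition genes, COL1A2, MMP9 and SPARC were members (7.69%), 9 carried both marks, among them SNAI2, FN1, CDH1 and ZEB2, and 31 carried H3K4me3 in 6 lists. MMP9 encodes gelatinase B, which degrades basement membrane. The window of MMP9 had 370/1890 bp under H3K27me3 with siControl, 966/1289 bp with siControl+TGFβ and 0/801 bp with siPHF13+TGFβ. COL1A2 encodes a chain of type I collagen. It had 650/5727 bp with siControl, 442/2093 bp with siControl+TGFβ and 179/494 bp with siPHF13+TGFβ, at alternative start sites, since the canonical TSS of COL1A2 was covered in 0 lists. SPARC encodes the matrix protein osteonectin and had 159/4585 bp, 486/319 bp and 0/538 bp, with the canonical TSS covered in 2 lists. The siControl and siControl+TGFβ libraries overlapped at all 3 genes. The siPHF13+TGFβ values overlapped with those of another group at each gene, and the lower of these came from the shortest list.

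Many members were neighbours on the chromosomes. When neighbouring members with TSSs within 200 kb were joined, 1037 members (64.8%) lay in runs of at least 2 genes, and 443 lay in 54 runs of at least 5. A total of 264 members (16.5%) shared a merged H3K27me3 region with another member, so neighbours are not independent observations. The largest run was the epidermal differentiation complex on chromosome 1 (chr1:152483279-153433127), where 27 of 45 coding genes were members. LORICRIN, the main protein of the cornified envelope, and PGLYRP4, a peptidoglycan recognition protein, had the highest mean fold there, at 3.58 and 3.35. At LORICRIN the fold was 3.43/3.53 with siControl, 3.76/3.71 with siControl+TGFβ and 3.60/3.48 with siPHF13+TGFβ, so the 6 libraries lay within a narrow range. The leukocyte receptor complex on chromosome 19 (chr19:54567151-55477742) held 23 members of 39 genes, which were LILR, LAIR and KIR receptors and neighbours. The keratin cluster on chromosome 12 (chr12:52761265-53242778) held 17 members of 20 genes.

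Other runs were made of recent gene copies. A run on chromosome 17 (chr17:33887838-34808104) held 20 members of 31 genes, with CCL chemokines and copies of TBC1D3, and TBC1D3G and TBC1D3B had the highest mean fold of 4.45 and 4.28. A run on chromosome 1 (chr1:12704104-13736907) held 18 of 29, mostly PRAMEF genes, with PRAMEF15 and PRAMEF9 at 4.38 and 3.83. The promoters of TBC1D3B, PRAMEF15 and PRAMEF9 share 100% and that of TBC1D3G 80.1% of their 50-base runs with other genes, so the peaks of single copies are uncertain. Further runs, picked after their values were seen, were those of the kallikreins and SIGLEC receptors on chromosome 19 with 15 of 19 genes, of USP17L copies on chromosome 4 with 15 of 18, and of the WFDC protease inhibitors on chromosome 20 with 11 of 11. By chromosome, members made up the highest share of coding genes on chromosome 20 (82 of 547, 15%), chromosome 11 (161 of 1317, 12.2%) and chromosome 1 (244 of 2092, 11.7%), and the lowest on chromosome 13 (7 of 322, 2.17%) and chromosome 9 (21 of 799, 2.63%).

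The members were poor in CpG dinucleotides. The CpG observed/expected ratio, over 250 bases before to 50 bases after the canonical TSS, had a median of 0.247 in members, 0.790 in promoters with both marks, 0.244 in promoters with neither mark and 0.778 over all coding genes. The middle 50% of members lay between 0.141 and 0.396, below the 0.631 to 0.909 of promoters with both marks. A ratio of at least 0.6, taken as CpG-rich, was found at 207 members (12.9%), against 78.6% of promoters with both marks and 67.6% of all coding genes. The CpG-rich members included GRIK3 at 0.970, DNAI2 at 1.01, FOXL3 at 0.920, DNAH8 at 0.803 and GALR2 at 0.703. H3K27me3 was present in 6 lists at 81 of the 207 CpG-rich members (39.1%) and at 637 of the 1394 others (45.7%), and the mean fold had a median of 2.65 and 2.67.

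**Figure D5:**
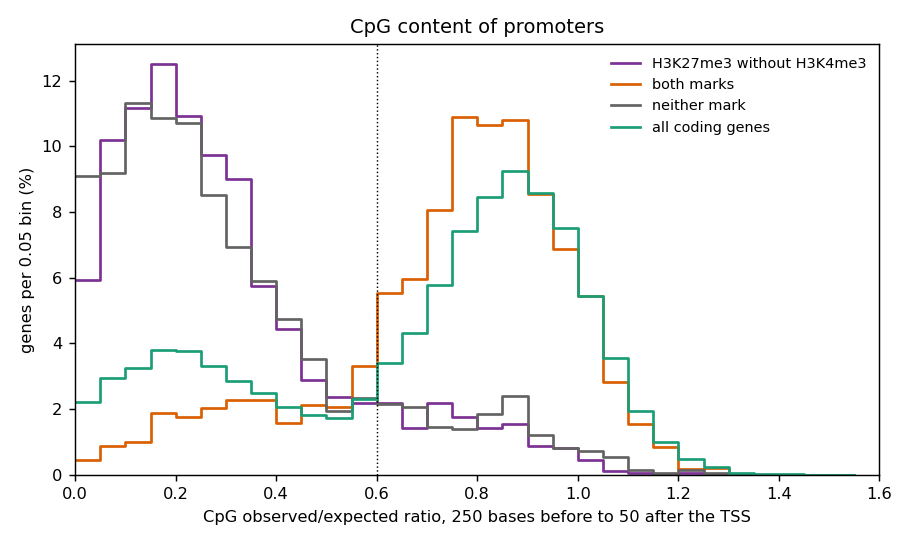
Distribution of the CpG observed/expected ratio (horizontal axis) as the share of genes per bin of 0.05 (vertical axis, %) for the members, both comparison sets and all coding genes, with a dotted line at 0.6. The members peak at low ratios with promoters that hold neither mark, with medians of 0.247 and 0.244, and apart from promoters with both marks at 0.790.

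Short motifs were counted on both strands of the same stretch, as a description of letters and not of binding sites. The TATA box letters TATAAA were found at 338 members (21.1%), against 6.91% of promoters with both marks, 23.2% with neither mark and 9.83% of all coding promoters. The letters TGANTCA, the core bound by AP-1 factors, were found at 158 members (9.87%), against 4.48%, 10.0% and 5.36%. The letters CGCGCG were found at 71 members (4.43%), against 32.1%, 5.18% and 24.2%, and this motif itself consists of CpG dinucleotides. By each of these measures the members lay close to promoters with neither mark and away from promoters with both marks.

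H3K27ac was then used as a readout that the rule had not used. An H3K27ac peak in at least 1 of 6 lists was found at 18 of the 1601 members (1.12%), against 62.4% of all coding genes, 82 of 2220 promoters with neither mark (3.69%) and 1088 of 2923 with both marks (37.2%). By library, the members with H3K27ac numbered 0 and 2 for siControl, 8 and 5 for siControl+TGFβ and 0 and 11 for siPHF13+TGFβ. The share in members was lower than in promoters with neither mark in 6 of 6 libraries, with a mean difference of -0.901 percentage points (SD 0.762, range -2.16 to -0.0901, n = 6, exact two-sided sign-flip permutation test, p = 0.031, the smallest 6 libraries allow). It was lower than in promoters with both marks in 6 of 6 libraries, with a mean difference of -21.8 points (SD 10.7, n = 6, exact permutation p = 0.031). The rule splits members from promoters with both marks by H3K4me3. The latter test cannot tell acetylation apart from this split, so no conclusion is drawn from it. Members and promoters with neither mark are split by H3K27me3, which sits on the same residue as H3K27ac. The former test cannot tell acetylation apart from that split, so its result describes these sets only. Without the near-identical copies the first difference was -0.977 points, with the same p. Without the first siPHF13+TGFβ library, and with the sets chosen anew from the other lists, it was -1.12 points (exact permutation p = 0.0625, the smallest 5 libraries allow). With peaks held to a stricter q-value, the difference was -0.465 points and no longer passed (exact permutation p = 0.09375).

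Between groups, the share of members with H3K27ac was 0.0625% ± 0.0883 (SD, n = 2) with siControl, 0.406% ± 0.133 with siControl+TGFβ and 0.344% ± 0.486 with siPHF13+TGFβ. The siControl+TGFβ libraries were above both siControl libraries, by 0.344 points (exact two-sided permutation test, p = 0.33, the smallest that 2 against 2 allows). The siPHF13+TGFβ group differed from siControl+TGFβ by -0.0625 points (exact permutation p = 1) and from siControl by 0.281 points (exact permutation p = 1). Its libraries held 0 and 11 acetylated members and so spanned those of both other groups. With members chosen anew without the first siPHF13+TGFβ library, the share in siPHF13+TGFβ was 0.317 points above siControl+TGFβ, so the direction turned. With every list at the length of the shortest, which held 0 acetylated members uncut, 0 of these 3 differences departed from 0. Differences of 0 at this length cannot tell whether list length made those above. The first siPHF13+TGFβ list held 6004 H3K27ac peaks against 19413 to 36104 in the others, and the siControl lists were shorter than the siControl+TGFβ lists.

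H3K27ac was gained with TGFβ, that is present in both siControl+TGFβ libraries and in neither siControl library, at 3 members (0.187%), TAF11L7, GDPD4 and CLDN14, against 1.61% of all coding genes. It was lost at 0 members, against 0.0052% of all genes. In siPHF13+TGFβ against siControl+TGFβ, 0 members gained and 0 lost the mark, against 0.0052% and 0.26% of all genes, and against siControl 0 gained and 0 lost it, against 0.026% and 0.0156%. GDPD4, a glycerophosphodiester phosphodiesterase, had 268/30 bp under H3K27ac with siControl+TGFβ and 0/403 bp with siPHF13+TGFβ. CLDN14, a tight junction claudin, had 323/114 bp and 0/312 bp. TAF11L7, a member of a copied gene family, had 14/154 bp and 0/153 bp. All 3 were thus also acetylated in the second siPHF13+TGFβ library, and GDPD4 and CLDN14 had H3K27me3 at the canonical TSS in 0 lists, so they were members through other start sites. Of the other acetylated members, TAF11L3 and APOH carried H3K27ac in 2 lists and 13 genes in 1 list, among them USP17L17, EIF5AL1 and SSU72L4.

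Finally, H3K27me3 at the members was set out by condition, as a description. The share of members with the mark was 89.8% ± 14.2 (SD, n = 2) with siControl, 96.7% ± 0.0442 with siControl+TGFβ and 74.9% ± 30.8 with siPHF13+TGFβ. The short lists moved these differences. Without the first siPHF13+TGFβ library, the difference between siPHF13+TGFβ and siControl+TGFβ changed from -21.8 to -0.158 points. Without the first siControl library, that between siControl+TGFβ and siControl changed from 6.96 to -1.13 points. In each case the members were chosen anew from the remaining 5 lists, which gave 1578 and 1498 genes. With every list at the length of the shortest, the differences kept their signs, at 5.38 points for siControl+TGFβ minus siControl, -12.1 for siPHF13+TGFβ minus siControl+TGFβ and -6.76 for siPHF13+TGFβ minus siControl. This setting equalises the number of peaks and not the bases they cover. The median peak of the first siPHF13+TGFβ list was 540 bp, against 625 to 843 bp in the other full lists. The part of peak length in these differences was not tested. No member lacked the mark in both siControl lists, so 0 gained it with TGFβ, against 0.26% of all coding genes. SPATA48 alone lacked it in both siControl+TGFβ lists and had it in the other 4, a loss seen at 0.51% of all coding genes against siControl and a gain seen at 0.0728% in siPHF13+TGFβ against siControl+TGFβ, with 183/1037 bp covered with siControl and 224/323 bp with siPHF13+TGFβ. A total of 36 members (2.25%) lacked it in both siPHF13+TGFβ lists and had it in the other 4. A loss, called from 2 groups with the third left free, was seen at 1.13% of all coding genes against siControl+TGFβ and at 0.998% against siControl. Of all 19229 coding genes, 12538 had the mark in 0 lists and could not lose it. The share in members, which all had the mark in at least 4 lists, is thus not comparable with these shares. Both comparisons share the siPHF13+TGFβ libraries, and the rule itself, which asks for 4 lists, admits the pattern.

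The highest mean fold among these 36 genes, named after their values were seen, was found at AL355149.2, SULT2A1, KPRP, IVL, PSG3 and MMP19. IVL encodes involucrin and KPRP another protein of the cornified skin layer, SULT2A1 a liver and adrenal sulfotransferase, PSG3 a placental glycoprotein and MMP19 a matrix metalloproteinase. At IVL, H3K27me3 covered 155/1903 bp with siControl, 1911/1398 bp with siControl+TGFβ and 0/0 bp with siPHF13+TGFβ. MMP19 had 156/2734 bp, 2557/655 bp and 0/0 bp, and KPRP had 262/1222 bp, 954/776 bp and 0/0 bp. The siPHF13+TGFβ libraries thus stood below the other 4 at these genes by the choice of the pattern, and the first siControl library was the lowest of those 4 at IVL, MMP19 and KPRP. Had the names inside the lists been followed in place of the labels, these 36 genes would be those without the mark after control siRNA with TGFβ.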

How the data were processed

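Peak lists of 18 ChIP-seq libraries were analysed, and 6 input samples were not used here. According to the study's methods and the submitters' processing notes, the authors trimmed reads with Trim Galore 0.4.1, aligned them to hg19 with Bowtie2 2.4.1, removed duplicates with Picard and called peaks per library against input with MACS2 2.2.7.1, narrow for H3K4me3 and H3K27ac and broad for H3K27me3. The deposited lists give each peak a score, a fold enrichment over input as a ratio, and -log10 p-value and -log10 q-value columns. The deposited score was about the whole number of 10 times the -log10 q-value. The lowest -log10 q-value was 1.30 in narrow and 1.00 in H3K27me3 lists, so the narrow lists hold weaker peaks than the threshold stated in the methods. Bowtie2 places reads of identical copies at any of the equal sites. Read depth is not in the lists, so no counting interval was given.

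Genes, all TSSs and the canonical TSS were taken from GENCODE v44 lifted to GRCh37, and sequences from GRCh37, and no peak lay beyond a chromosome end of this build. An overlap of 1 bp with a window counted. Shares were compared with exact permutation tests over libraries. Overlap and test code was tested on simulated data (Python 3.11.15, NumPy 2.4.6, pandas 2.3.3, matplotlib 3.10.9). Genes were named by rule. They were the 8 members with the highest mean fold, the 8 with the longest summed peaks and up to 8 with H3K27ac in most lists. Also named were those with H3K27ac gained or lost and the 2 with the highest fold of each gene list with at least 3 members. The rest were 3 genes on each side of the list threshold, 2 genes of each of the 5 largest runs, and all members among TGFβ-responsive and Polycomb genes. Other genes were named after their values were seen, and some items that the rule selects are not reported here. The members, rule and gene lists were chosen with earlier results of these data known. Alternatives covered window, number of lists, TSS set, list length, q-value, overlap, sequence window, each library left out, a replicate block and, added after seeing the data, near-identical copies and both short libraries left out together.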

Additional observations from a re-analysis of the deposited data

How the results depend on the processing

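The number of members ranged from 1262 to 1772 under all alternatives except H3K27me3 in all 6 of 6 lists, which left 718, and the stricter q-value filter, which left 426. The median CpG ratio lay between 0.238 and 0.270 under each of its alternatives. The H3K27ac difference between members and promoters with neither mark stayed below 0 in all settings and missed the threshold at -0.465 points with the stricter filter (exact permutation p = 0.09375), between -1.12 and -0.671 when each library was left out (p = 0.0625, the smallest 5 libraries allow) and at -1.17 with both short libraries left out (p = 0.125, the smallest 4 allow). With lists of equal length it was -0.135 points (exact permutation p = 0.031). For H3K27ac in siPHF13+TGFβ minus siControl+TGFβ, the difference reversed to 0.0341 points with the canonical TSS only, and to 0.367 with both short libraries left out, and it ranged from -0.463 to 0.317 when each library was left out. For siPHF13+TGFβ minus siControl it ranged from -0.193 to 0.634, and for siControl+TGFβ minus siControl from 0.267 to 0.461. The last difference was 0.0341 points with the canonical TSS only, 0.139 with a window of 500 bp and 0.574 with 2 kb. For H3K27me3, siControl+TGFβ minus siControl ranged from -1.13 to 7.16 points when each library was left out and was -5.36 with both short libraries left out, siPHF13+TGFβ minus siControl ranged from -32.3 to 7.0 and was -5.59 with both short libraries left out, and siPHF13+TGFβ minus siControl+TGFβ from -34.5 to -0.158. Leaving out a library leaves fewer samples and chooses the members anew from the remaining lists, and the cause of the other changes was not tested. With all 6 lists required, every member has H3K27me3 in every list, so no group difference exists.

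The labels give the groups the same replicate numbers but do not say that these mark shared batches. With a replicate block, H3K27ac in siControl+TGFβ minus siControl remained at 0.344 points (exact permutation p = 0.5, the smallest 2 pairs allow), and the other comparisons at -0.0625 and 0.281 points (p = 1). Across all coding genes, the correlation of the H3K27ac difference between replicates was -0.537 between siControl and siControl+TGFβ, -0.676 between siControl+TGFβ and siPHF13+TGFβ and 0.626 between siControl and siPHF13+TGFβ. Crossing the numbers for the pairs with a negative correlation left p at 0.5 and 1. Peak lists hold no reads, so a weak enrichment below the caller's threshold cannot be told apart from none.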

Other observations

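Genes were also grouped by the stem of their symbol, and the stems below were picked after their values were seen, so their counts are a description beside the 8.33% of all coding genes. FAM and TMEM genes were near or below that share, with 17 of 192 (8.85%) and 12 of 231 (5.20%). Stems not taken up below also lay above it, among them GOLGA6L with 9 of 11 genes (81.8%) and USP17L with 15 of 26 (57.7%). H3K27me3 without H3K4me3 was found at 9 of 12 WFDC protease inhibitors, led by WFDC6, at 9 of 12 SIGLEC receptors, which bind sialic acid on leukocytes, and at 10 of 15 kallikreins, led by KLK2, a prostate protease. It was found at 9 of 14 NLRP genes, led by NLRP2, at 11 of 40 beta-defensins (DEFB), led by DEFB108B, and at 9 of 19 HLA genes, led by HLA-DRB5. The median CpG ratio of these members was 0.132 for WFDC, 0.312 for SIGLEC, 0.248 for KLK, 0.412 for NLRP, 0.167 for DEFB and 0.207 for HLA.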
